A study of Mus musculus with 6 samples.

Results

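Transcripts of DNA replication and mitosis were examined in 2 cell populations sorted from the limb skeleton of newborn mice. The list named 45 genes, 21 of DNA replication and 24 of mitosis, and a gene was counted where the array annotation gave it a probe set that names no other gene. By this rule 44 genes were measured (21 replication and 23 mitosis genes) among 18193 measured genes, each read from whichever of its probe sets had the highest 6-array mean. Ccnb1, the gene of cyclin B1, had no such probe set and was not analysed here. All 44 entered the comparison without a filter on low values, and 43 lay above the 40th percentile of mean level, the exception being Tyms.

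Each of the 6 Affymetrix arrays was hybridised with RNA, amplified in a double round, from cells of mice at postnatal day 3. Fore and hind limbs of a litter were pooled and dissociated with collagenase, and the cells were separated by flow cytometry. The Tie2-negative population (3 arrays) carries a title that excludes Ter119 (an erythroid antigen), CD45 (an antigen of all leukocytes), integrin alpha V and Tie2 (the angiopoietin receptor), and that of the Tie2-positive population (3 arrays) describes it as positive for Tie2, low for integrin alpha V and lacking CD45 and Ter119. The labels give the genotype of all 6 samples as wild type, while the growth protocol speaks of GFP-labelled mice. All samples were untreated. No label says whether separate litters gave the 3 samples of a population, so the p-values reflect only how far these samples spread, a spread that may be technical, and precision is limited by how few arrays there are.

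A cell that divides first licenses its replication origins by loading the Mcm2 to Mcm7 helicase with the help of Cdc6 and Cdt1, then fires them under cyclin E and cyclin A kinases and copies its DNA with polymerases held by the Pcna clamp. Mitosis follows under cyclin B and Cdk1, with Aurora and Polo-like kinases, kinesin motors and kinetochore proteins building the spindle, and ends when the anaphase-promoting complex destroys the cyclins. Replication genes are typically switched on by E2F factors late in G1, and mitosis genes later, through CCAAT boxes and a cell cycle homology region (CHR) bound by the DREAM and MuvB complexes. In the newborn marrow, red-cell and B-cell precursors are known as rapidly dividing cells.

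Promoters of most members with a promoter entry hold the letters of at least 1 of these elements. A few are shown here because the counts of these letters differ between replication and mitosis genes. RefSeq promoters (GRCm38.p6, 250 bases before to 50 after the gene start) were matched by symbol for 37 of the 44 members, in 40 entries, since Mcm7, Fen1 and Prc1 have more than 1. Both strands were searched for E2F-type letters (TTTCCCGC, TTTCGCGC, TTTGGCGC or TTTGCCGC), for CCAAT and for the CHR-type letters TTTGAA. Of the 37 members, 6 had no match to any of the 3 motifs. In the member promoters, 1 pair of matches to different motifs overlapped. E2F-type letters stood in 7 of 20 replication promoters and in 1 of 20 mitosis promoters, against 2.26% of all 32851 promoters. CHR-type letters stood in 16 of 20 mitosis promoters and in 3 of 20 replication promoters, against 17.9% of all. CCAAT stood in 18 of 20 mitosis and 12 of 20 replication promoters, against 37.4% of all. Of the 20 CHR-type matches in mitosis promoters, in which the match of Prc1 counts in each of its overlapping entries, 15 lay within 40 bases of the gene start. A match is a description of the letters, and no binding was measured.

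The 160 bases before the start of 4 replication genes follow, 5′ to 3′ on the gene's strand, with E2F-type and CCAAT matches on either strand in capitals (opposite-strand CCAAT reads ATTGG); runs of capitals longer than 1 motif are overlapping E2F-type matches. Ccne1 (chr7:38107491-38107650, minus strand) is shown because it was the member that passed the test, and this stretch held none of the searched letters. Cdc6 (chr11:98907991-98908150, plus strand), Mcm5 (chr8:75109349-75109508, plus strand) and Mcm6 (chr1:128359706-128359865, minus strand) carry E2F-type letters.
Ccne1: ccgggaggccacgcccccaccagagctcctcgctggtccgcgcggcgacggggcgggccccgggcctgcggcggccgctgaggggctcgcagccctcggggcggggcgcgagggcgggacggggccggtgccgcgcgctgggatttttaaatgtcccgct
Cdc6: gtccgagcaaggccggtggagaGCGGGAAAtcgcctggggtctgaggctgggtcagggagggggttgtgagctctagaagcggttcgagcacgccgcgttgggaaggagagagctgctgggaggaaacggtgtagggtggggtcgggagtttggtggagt
Mcm5: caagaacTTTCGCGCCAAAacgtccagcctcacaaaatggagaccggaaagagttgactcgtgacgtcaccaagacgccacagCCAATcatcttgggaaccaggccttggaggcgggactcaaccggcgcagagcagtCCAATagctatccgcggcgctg
Mcm6: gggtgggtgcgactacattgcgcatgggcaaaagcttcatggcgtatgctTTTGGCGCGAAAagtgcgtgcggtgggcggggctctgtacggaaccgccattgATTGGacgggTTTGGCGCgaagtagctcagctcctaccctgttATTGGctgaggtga

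The same stretch of 4 mitosis genes follows, with CCAAT and CHR-type matches, and the E2F-type match of Cdk1, in capitals. CHR-type letters on the opposite strand read TTCAAA. Shown are Cdk1 (chr10:69352913-69353072, minus strand), Cdc20 (chr4:118437344-118437503, minus strand), Kif11 (chr19:37376222-37376381, plus strand) and Ube2c (chr2:164769769-164769928, plus strand), in each of which a CHR-type match lies close to the start.
Cdk1: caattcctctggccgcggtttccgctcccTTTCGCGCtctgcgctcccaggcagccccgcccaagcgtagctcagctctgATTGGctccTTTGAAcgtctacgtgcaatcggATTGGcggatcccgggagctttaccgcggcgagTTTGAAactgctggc
Cdc20: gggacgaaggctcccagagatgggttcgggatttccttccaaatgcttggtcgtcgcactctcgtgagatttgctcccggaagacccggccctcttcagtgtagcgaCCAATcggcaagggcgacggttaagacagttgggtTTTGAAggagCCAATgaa
Kif11: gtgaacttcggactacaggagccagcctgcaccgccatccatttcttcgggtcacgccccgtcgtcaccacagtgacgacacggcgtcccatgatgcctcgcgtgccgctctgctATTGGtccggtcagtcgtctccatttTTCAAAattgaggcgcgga
Ube2c: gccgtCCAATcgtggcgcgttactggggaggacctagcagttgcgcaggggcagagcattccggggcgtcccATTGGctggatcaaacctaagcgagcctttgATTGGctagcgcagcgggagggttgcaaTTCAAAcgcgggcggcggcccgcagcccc

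**Figure D1:**
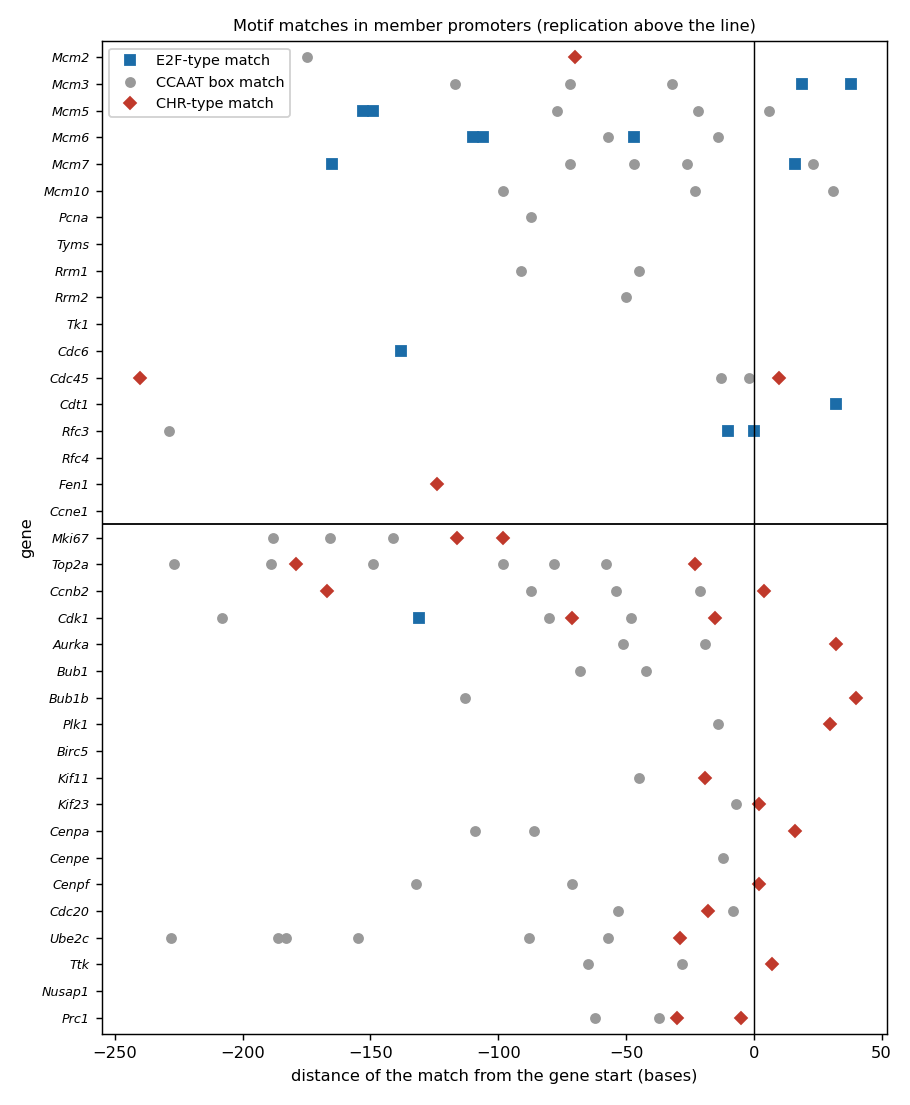
Matches to the 3 motifs in the promoters of the 37 members with a RefSeq entry, by distance in bases from the gene start (vertical line), with replication genes above the horizontal line and mitosis genes below; entries of 1 gene share a row, each by its own start. Of the 20 CHR-type matches (diamonds) in mitosis promoters, 15 lie within 40 bases of the start, and 7 of 20 replication promoters hold E2F-type matches (squares).

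All values below are log2 levels after quantile normalization, and differences are Tie2-positive minus Tie2-negative with limma's standard error (SE, n = 3 per population). Tek, the gene of Tie2, was at 4.79 to 4.90 in the Tie2-negative and at 12.06, 10.86 and 9.80 in Tie2-positive replicates 1, 2 and 3, so that the populations differed in the gene of their sort marker. Ptprc, the gene of CD45, was at 9.42 to 10.41 in the Tie2-negative arrays and at 4.87, 9.95 and 11.23 in the Tie2-positive arrays, although both gates are titled CD45-negative. Markers of bone, cartilage and mesenchyme were low in both populations, their median being 5.32 to 6.04 on the 6 arrays against 6.47 to 6.64 for all genes. Over 18193 genes limma called 1345 at a Benjamini-Hochberg adjusted p under 0.05, and the median difference of all genes was -0.11.

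Replication and mitosis transcripts were higher in the Tie2-negative samples, in that their median level was lower in each Tie2-positive sample than in any Tie2-negative one, by very unequal amounts. All 44 members had a negative difference, from -2.95 for Ccne1 to -0.54 for Cdk1, with a median of -1.33 over the 21 replication and -1.15 over the 23 mitosis genes, beside -0.11 over all genes. In 35 members all 3 Tie2-negative values lay above all 3 Tie2-positive values (19 replication and 16 mitosis genes), which held for 23.9% of all genes. The Tie2-positive arrays differed widely from one another, and Ccne1 alone passed the test: 1 of 21 replication and 0 of 23 mitosis genes fell, and 0 rose, where 2.53% of all genes fell, 4.86% rose and 7.39% were called in either direction. At an unadjusted p under 0.05, 16 replication and 7 mitosis genes were lower, beside 15.6% of all genes. In these bulk samples, fewer dividing cells and less of these RNAs per cell cannot be told apart.

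**Figure D2:**
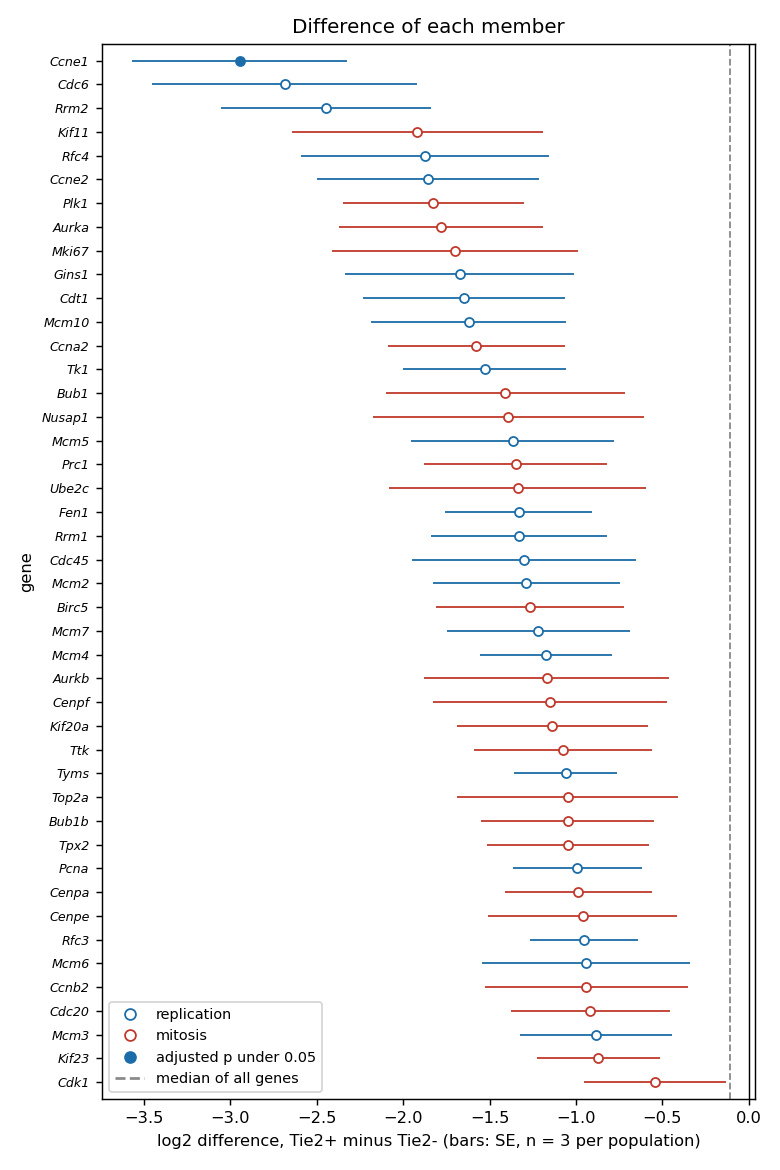
Log2 difference (Tie2-positive minus Tie2-negative) of each of the 44 members with its SE as a bar (n = 3 per population), replication genes in blue and mitosis genes in red. All points lie left of the dashed line at -0.11, the median of all genes, and the filled point, Ccne1, is the member with an adjusted p under 0.05.

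The 3 Tie2-positive arrays did not form an even group. Tie2-positive replicate 1 was the lowest of all 6 arrays in 43 of 44 members (the exception was Tyms), whereas it was the lowest array for 30.7% of all genes. Set against the mean of the Tie2-negative arrays, the median replication gene stood at -2.64, -0.86 and -0.67 in Tie2-positive replicates 1, 2 and 3. For the median mitosis gene these values were -2.55, -0.45 and -0.60, and for the median of all genes -0.13, -0.10 and -0.10. Replicates 2 and 3 thus lay far closer to the Tie2-negative arrays than replicate 1 did. In 7 mitosis genes (Ccnb2, Cdk1, Aurkb, Cenpf, Ube2c, Ttk and Nusap1) and 2 replication genes (Mcm6 and Cdc45) 1 or both of them reached the range of the Tie2-negative arrays. The SD among the Tie2-positive arrays had a median of 1.16 over the members, against 0.29 among the Tie2-negative arrays, while over all genes the medians were 0.23 and 0.21.

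**Figure D3:**
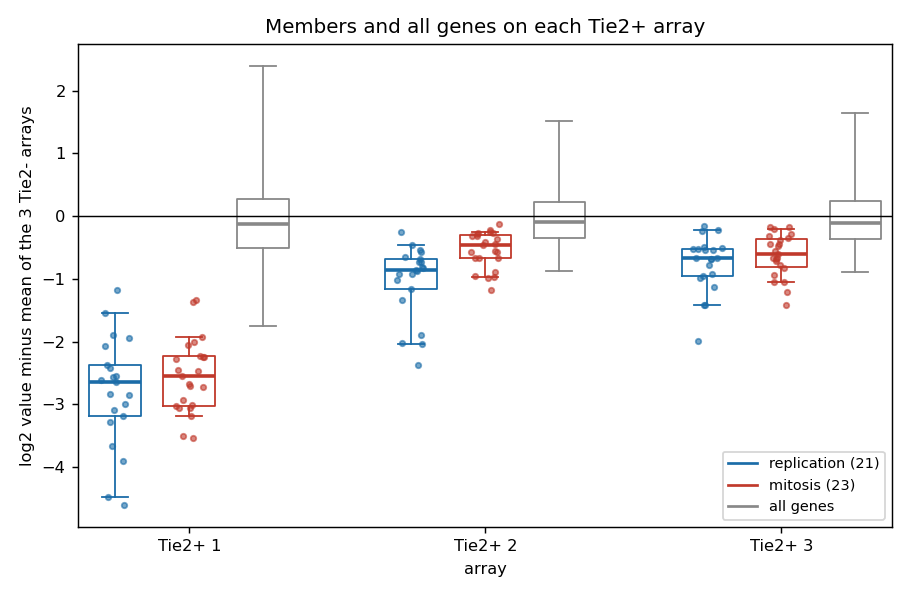
Log2 value of each Tie2-positive array minus the mean of the 3 Tie2-negative arrays, for 21 replication genes (blue), 23 mitosis genes (red) and all 18193 genes (grey); boxes give quartiles and median, whiskers the 5th and 95th percentiles, points single members. The members sit lowest on replicate 1, with medians of -2.64 and -2.55, and between -0.86 and -0.45 on replicates 2 and 3.

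The calls differed with the arrays used. Without Tie2-positive replicate 1, limma called 12 replication and 3 mitosis genes lower (Mcm2, Mcm4, Mcm5, Mcm7, Mcm10, Rrm1, Rrm2, Cdc6, Cdt1, Rfc4, Fen1 and Ccne1; Mki67, Aurka and Plk1), beside 3.58% of all genes, with median differences of -0.81 and -0.52. From Tie2-positive replicate 1 alone, without replicates 2 and 3, 20 replication and 21 mitosis genes were lower, beside 9.03% of all genes, with medians of -2.64 and -2.55. That fit takes the spread of the Tie2-negative arrays as the spread of both populations. Without Tie2-positive replicate 3 the counts were 3 (Rrm2, Ccne1 and Ccne2) and 0, beside 1.24% of all genes. Without Tie2-positive replicate 2 they were 0 and 0 (0.709% of all genes), as they were without Tie2-negative replicate 3 (0.698%), 1 or 2 (0% of all genes each). With arrays weighted by how closely their values followed those of their population, the counts were 10 and 2, beside 13.5% of all genes.

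Among the G1/S cyclins, Ccne1 fell, and it had the largest difference of all members. Ccne1 encodes cyclin E1, which activates Cdk2 at the start of S phase. It was at 11.91, 12.44 and 12.02 in the Tie2-negative samples and 7.65, 9.75 and 10.13 in Tie2-positive replicates 1, 2 and 3. The populations did not overlap, and the highest Tie2-positive value lay well under the lowest Tie2-negative one. The difference was -2.95 ± 0.62 (SE), that is a 7.70-fold lower level (limma adjusted p = 0.0401). Over the 17 alternatives its adjusted p ran from 0.000223 to 0.138, and it passed in 12. It missed the threshold with a block for the replicate number (adjusted p = 0.0636), without Tie2-negative replicate 1 (0.131), 2 (0.138) or 3 (0.107), or without Tie2-positive replicate 2 (0.0763). Its second probe set, whose suffix, unlike that of the first, does not mark possible cross-hybridisation, gave 10.54, 11.02 and 10.72 against 6.89, 8.43 and 8.66. Ccne2, the gene of cyclin E2, was at 10.11, 9.38 and 9.61 against 6.52, 7.81 and 9.19. Its Tie2-positive replicate 3 came close to the Tie2-negative range, and the difference of -1.86 ± 0.64 (SE) did not pass (limma adjusted p = 0.122).

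The licensing and firing factors held the next largest difference. Cdc6, the loader that brings the helicase to the origin, was at 11.68, 11.41 and 11.47 in the Tie2-negative and at 6.92, 9.49 and 10.10 in the Tie2-positive samples. No values overlapped, and the difference of -2.69 ± 0.77 (SE), whose Tie2-positive values had an SD of 1.69, did not pass (limma adjusted p = 0.0813). Cdt1, its partner in loading, was at 12.56, 12.38 and 12.27 against 9.31, 11.24 and 11.72. Mcm10 and Gins1, which take part in the assembly of the active helicase, differed by -1.62 ± 0.56 and -1.67 ± 0.66 (SE). Cdc45, a subunit of the active helicase, had the smallest difference of the 5 factors (-1.30 ± 0.65, SE). Its Tie2-positive replicate 3 (9.35) just exceeded the lowest Tie2-negative value (9.34), while Tie2-positive replicate 1 was at 6.74. Limma's adjusted p for the 5 ran from 0.0813 to 0.231.

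The 6 helicase subunits gave similar values in the probe sets used, with differences between -1.37 and -0.88. Except for Mcm6, these were x_at or s_at probe sets, whose suffix marks possible cross-hybridisation. Over all probe sets of the 6 genes the differences ran from -1.66 (Mcm5) to -0.07 (Mcm6, in a probe set with a mean of 3.84). Mcm5 had the largest, with 12.45, 12.46 and 12.36 in the Tie2-negative and 9.58, 11.69 and 11.90 in the Tie2-positive samples (-1.37 ± 0.59, SE). Mcm3 had the smallest, with 11.34, 11.44 and 11.57 against 9.51, 10.98 and 11.21 (-0.88 ± 0.44, SE). In both genes the Tie2-negative values lay close together (SD of 0.05 and 0.12) and Tie2-positive replicate 1 stood apart from the rest. Mcm6 was the subunit whose populations overlapped, at 11.63, 12.22 and 12.18 against 9.59, 11.76 and 11.86. None of the 6 passed (limma adjusted p from 0.108 to 0.332).

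At the fork, Rfc4, a subunit of the loader that opens the Pcna clamp, was at 10.65, 10.20 and 10.18 against 6.68, 9.33 and 9.39 (-1.87 ± 0.72, SE). Rfc3, another subunit of the same loader, was at 8.84, 8.44 and 8.33 against 6.99, 7.88 and 7.87 (-0.95 ± 0.31, SE). Pcna, the clamp itself, differed by -0.99 ± 0.37 (SE), and Fen1, the nuclease that trims Okazaki fragments, by -1.33 ± 0.43 (SE). In all 4 the Tie2-negative values lay above the Tie2-positive ones, which held for 23.9% of all genes. None passed (limma adjusted p from 0.105 to 0.148).

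Among the enzymes of nucleotide supply, Rrm2, the regulated subunit of ribonucleotide reductase, came nearest to a call. It was at 13.31, 13.00 and 12.62 in the Tie2-negative and at 9.08, 10.95 and 11.55 in the Tie2-positive samples, a difference of -2.45 ± 0.61 (SE; limma adjusted p = 0.0593). All 3 Tie2-positive values lay at least 1 log2 unit below the Tie2-negative ones. Rrm2 passed when genes under the 40th percentile of mean level were left out (limma adjusted p = 0.0495), where 2 replication genes fell beside 4.95% of all genes. Rrm1, the large subunit, was nearly constant at 12.43, 12.45 and 12.43 in the Tie2-negative samples and was at 9.82, 11.75 and 11.74 in the Tie2-positive ones. Tk1, thymidine kinase, differed by -1.53 ± 0.47 (SE). Tyms, thymidylate synthase, departed from the pattern: it was at 5.69, 6.64 and 5.88 against 4.90, 4.73 and 5.41, with Tie2-positive replicate 2 lowest (-1.06 ± 0.30, SE; limma adjusted p = 0.0773). Its 4 probe sets all had means below 6.55, the median of all gene values.

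Mitosis genes too were lowest in Tie2-positive replicate 1. Ccna2, the gene of cyclin A2, which acts in S phase and at the entry into mitosis, was at 12.09, 11.39 and 11.15 against 8.83, 10.57 and 10.50 (-1.58 ± 0.51, SE). Cdk1, the kinase that drives mitosis, had the smallest difference of all members: it was at 11.48, 10.62 and 10.59 against 9.57, 10.77 and 10.73 (-0.54 ± 0.41, SE; limma adjusted p = 0.402). Tie2-positive replicates 2 and 3 lay inside the Tie2-negative range of Cdk1. Ccnb2, cyclin B2, had the same arrangement, with 11.75, 10.85 and 10.65 against 8.84, 10.83 and 10.76.

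Of the 7 genes of mitotic kinases and their partners, Plk1, the Polo-like kinase, had the largest difference. It was at 10.39, 10.11 and 10.13 against 7.15, 9.22 and 8.79 (-1.82 ± 0.52, SE; limma adjusted p = 0.0812, the lowest of any mitosis gene). Bub1b, a protein of the spindle checkpoint, had the smallest, at 10.32, 10.64 and 10.15 against 8.13, 9.91 and 9.92 (-1.05 ± 0.50, SE). In both genes all Tie2-negative values lay above the Tie2-positive ones, which held for 23.9% of all genes, and Tie2-positive replicate 1 was lowest. Aurka and Aurkb, the Aurora kinases of spindle poles and of the chromosomal passenger complex, differed by -1.78 ± 0.59 and -1.17 ± 0.71 (SE). In Tie2-positive replicates 2 and 3 Aurka was at 9.37 and 9.10, below all Tie2-negative values (10.05 to 10.72), whereas Aurkb was at 9.26 and 9.51 beside Tie2-negative values from 9.50 to 9.95. Bub1, Ttk and Birc5, a checkpoint kinase, the Mps1 kinase and survivin, differed by -1.41 ± 0.69, -1.08 ± 0.52 and -1.27 ± 0.54 (SE).

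Among motors and spindle proteins, Kif11, the kinesin that pushes spindle poles apart, was at 11.15, 10.04 and 9.71 against 6.77, 9.12 and 9.26 (-1.92 ± 0.73, SE), the largest difference of the mitosis genes. Kif23, a kinesin of the central spindle, was at 10.46, 9.65 and 9.62 against 8.54, 9.02 and 9.55 (-0.87 ± 0.36, SE). Kif11 thus reached its lowest value in Tie2-positive replicate 1 by a wide margin, while the Tie2-positive values of Kif23 were closer together. Nusap1, a microtubule-binding protein, varied most within the Tie2-negative population, at 12.30, 10.84 and 10.37, against 8.16, 10.73 and 10.45. Kif20a, Tpx2 and Prc1, which act at the midzone or in spindle assembly, differed by -1.14 ± 0.55, -1.05 ± 0.47 and -1.35 ± 0.53 (SE).

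The centromere genes differed by about 1 log2 unit. Cenpf was at 10.93, 9.84 and 9.98 against 7.54, 9.99 and 9.77 (-1.15 ± 0.68, SE), and Cenpe, a kinetochore motor, at 9.08, 8.78 and 8.81 against 6.60, 8.66 and 8.51 (-0.96 ± 0.54, SE). Cenpa, the histone H3 variant of centromeres, differed by -0.99 ± 0.42 (SE). Ube2c, the ubiquitin-conjugating enzyme of the anaphase-promoting complex, was at 11.24, 10.03 and 10.00 against 7.39, 10.11 and 9.75 (-1.34 ± 0.74, SE). Cdc20, its activator, was nearly constant in the Tie2-negative samples, at 11.99, 11.96 and 11.97, and was at 9.91, 11.71 and 11.54 in the Tie2-positive ones (-0.92 ± 0.46, SE). In all 5 genes Tie2-positive replicate 1 was the lowest array and replicates 2 and 3 lay near the Tie2-negative values.

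Mki67, which encodes the Ki-67 antigen of dividing cells, was at 12.81, 12.61 and 12.51 against 9.13, 11.98 and 11.71 (-1.70 ± 0.71, SE; limma adjusted p = 0.173). Top2a, the topoisomerase that untangles replicated chromosomes, was at 11.61, 11.53 and 11.41 against 8.85, 11.24 and 11.31 (-1.05 ± 0.64, SE; limma adjusted p = 0.312). In both genes all Tie2-negative values lay above the Tie2-positive ones, which held for 23.9% of all genes. For Top2a only 0.09 lay between its lowest Tie2-negative and its highest Tie2-positive value.

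**Figure D4:**
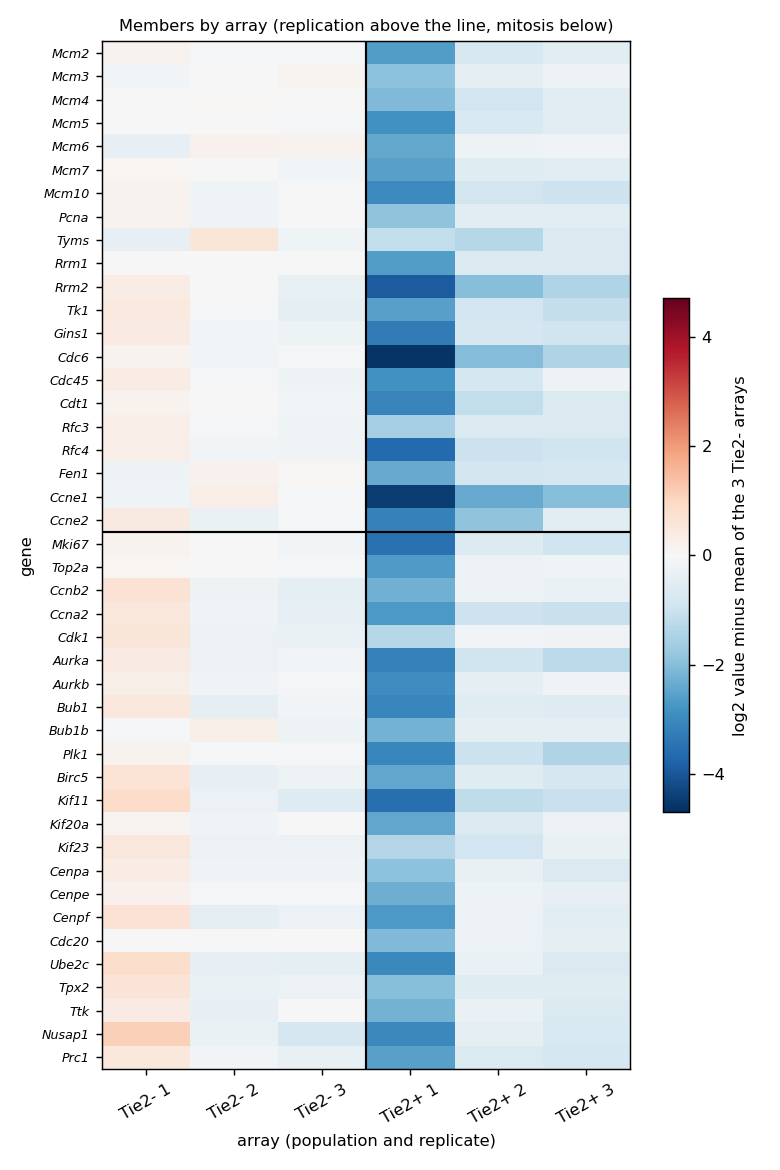
Log2 value of each member on each array minus the mean of the 3 Tie2-negative arrays (colour), with replication genes above the horizontal line and mitosis genes below. Tie2-positive replicate 1 is the darkest column, with values down to -4.60 for Cdc6, and Tie2-negative replicate 1 is the reddest among the mitosis genes.

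The Tie2-negative arrays also differed among themselves, in mitosis genes more than in replication genes. Tie2-negative replicate 1 was the highest of the 6 arrays in 22 of 23 mitosis genes and in 13 of 21 replication genes. The share of all genes with their highest value on that array was not counted. Tie2-negative replicate 1 exceeded the mean of Tie2-negative replicates 2 and 3 by a median of 0.72 in mitosis genes and 0.24 in replication genes, while the median over all genes was -0.04. The median level of the mitosis genes was 11.15 in Tie2-negative replicate 1 and 10.11 and 10.15 in replicates 2 and 3. That of the replication genes was 11.68, 12.20 and 12.02, which did not single out replicate 1. No test was made of these differences between single arrays.

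Other probe sets of the members had the same sign. The 44 members had 99 probe sets that name no other gene, and all 99 had the lower mean in the Tie2-positive population. Of the 55 probe sets not used above, 29 had a mean above 6.55, the median of all gene values, and all 29 were lower. These probe sets read the same RNA samples and are not independent replicates.

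Genes of the same processes outside the list gave similar values. Of 42 measured further replication genes, 3 fell and 0 rose, with a median difference of -1.21, and all 42 differences were negative. Of all genes 2.53% fell, and 11076 of 18193 had a negative difference. The 3 were E2f2, an E2F activator, the origin recognition gene Orc2 and Gins3, a subunit of the GINS complex. E2f2 was at 11.99, 10.62 and 9.52 in the Tie2-negative and at 6.66, 7.28 and 7.98 in the Tie2-positive samples (-3.41 ± 0.65, SE; limma adjusted p = 0.0305). Orc2 was at 9.63, 9.30 and 9.57 against 7.20, 8.09 and 7.83 (-1.79 ± 0.28, SE; limma adjusted p = 0.0194). In both genes all Tie2-negative values lay above the Tie2-positive ones, which held for 23.9% of all genes. Gins3 (-1.26 ± 0.29, SE; limma adjusted p = 0.0486) lay at the threshold and did not pass in 10 of 17 alternatives, among them the values as deposited and each fit without a Tie2-negative array. Orc2 missed the threshold with a block for the replicate number or without any 1 of the Tie2-negative arrays. E2f2 missed it with the block, without Tie2-negative replicate 1 or 2, or without Tie2-positive replicate 2.

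Of 48 further mitosis genes, 0 rose and 0 fell in limma, with a median difference of -1.03. At an unadjusted p under 0.05, 18 of them were lower, beside 15.6% of all genes. The 2 with the highest probe set means, the cyclin-dependent kinase subunits Cks1b and Cks2, differed by -0.57 ± 0.44 and -1.10 ± 0.63 (SE). Cep55, a protein of the abscission site that was named after its value was seen, was the exception in sign, at 7.13, 8.42 and 7.82 against 8.08, 9.33 and 9.59 (1.21 ± 0.49, SE; limma adjusted p = 0.165). Among 20 genes of cell cycle entry and arrest (median difference -0.50), 1 fell and 0 rose, beside 2.53% and 4.86% of all genes. E2f4, an E2F factor of the DREAM complex, fell by 1.24 ± 0.20 (SE; limma adjusted p = 0.0200). Its values were 8.04, 8.05 and 8.38 against 6.86, 7.04 and 6.84, level within each population, but it did not pass with the block, without any 1 of the Tie2-negative arrays or without Tie2-positive replicate 2. The D cyclins, which drive cells into the cycle, were also named after their values were seen. They differed in sign, with Ccnd1 at 1.97 ± 0.55, Ccnd2 at 1.25 ± 0.39 and Ccnd3 at -1.17 ± 0.35 (SE). None was past the threshold (limma adjusted p = 0.0756, 0.0978 and 0.0897). Cdkn1c, named in the same way, had the largest difference of the 20 genes (2.95 ± 0.78, SE; limma adjusted p = 0.0684). It was higher in each Tie2-positive sample than in any Tie2-negative one and did not pass.

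Marker lists of blood and vessel cells also differed between the arrays. Erythroid and early B-cell markers fell in 8 of 14 and 7 of 12 cases, pan-endothelial and megakaryocyte markers rose in 13 of 20 and 2 of 8, and 0 of 13 neutrophil and monocyte markers passed in limma (0 at an unadjusted p under 0.05). Among blood stem and progenitor markers 3 of 10 rose, including Cd34, which is also pan-endothelial. Of 10 macrophage and osteoclast markers 1 rose and 1 fell, and of 6 T and NK cell markers 1 fell. Of all genes, 2.53% fell and 4.86% rose. The progenitor list had medians of 7.23, 8.53 and 9.14 in Tie2-positive replicates 1, 2 and 3, and of 7.14 to 7.75 in the Tie2-negative samples. The 14 measured erythroid markers of 18 had a median of 12.24, 10.66 and 10.61 in the Tie2-negative and 6.40, 8.77 and 6.82 in the Tie2-positive samples, highest in Tie2-negative replicate 1 like the mitosis genes and lowest in Tie2-positive replicate 1. Their summed level, in log2, ran from 15.23 to 16.23 in the Tie2-negative and from 10.58 to 13.18 in the Tie2-positive samples. The 12 measured early B-cell markers of 13 summed to 11.79 to 14.15 and 9.71 to 9.93. The 13 measured neutrophil and monocyte markers of 14 were lowest in Tie2-positive replicate 1 (median 5.98) and highest in Tie2-positive replicates 2 (11.21) and 3 (13.34), with sums of 10.11 to 12.42 in the Tie2-negative and 9.70 to 16.91 in the Tie2-positive samples. The 20 pan-endothelial markers were highest in Tie2-positive replicate 1 (median 11.68), followed by replicates 2 (10.31) and 3 (9.15), with sums of 11.27 to 11.84 in the Tie2-negative and 13.55 to 16.04 in the Tie2-positive samples. The 8 measured megakaryocyte markers of 10 had medians of 6.78, 10.02 and 8.65 in the Tie2-positive samples, and sums of 9.51 to 9.60 and 11.99 to 13.43. Vwf, which is also a pan-endothelial marker, is 1 of the 2 that rose, beside Pf4. At 11.52 Vwf had the highest value of the 8 in Tie2-positive replicate 1. On that array Pf4 was at 9.11, Itga2b at 7.74 and Ppbp at 4.83, beside Tie2-negative means of 5.79, 7.38 and 4.33. Gp9 was at 6.74, Gp6 at 5.14, Treml1 at 6.83 and Gp1bb at 6.20 there, beside Tie2-negative means of 7.81, 5.37, 6.87 and 6.17. Itga2b and Ppbp did not pass (limma adjusted p = 0.122 and 0.116). No marker is listed at 0, and the part of these cell types in the differences of the replication and mitosis genes was not tested.

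**Figure D5:**
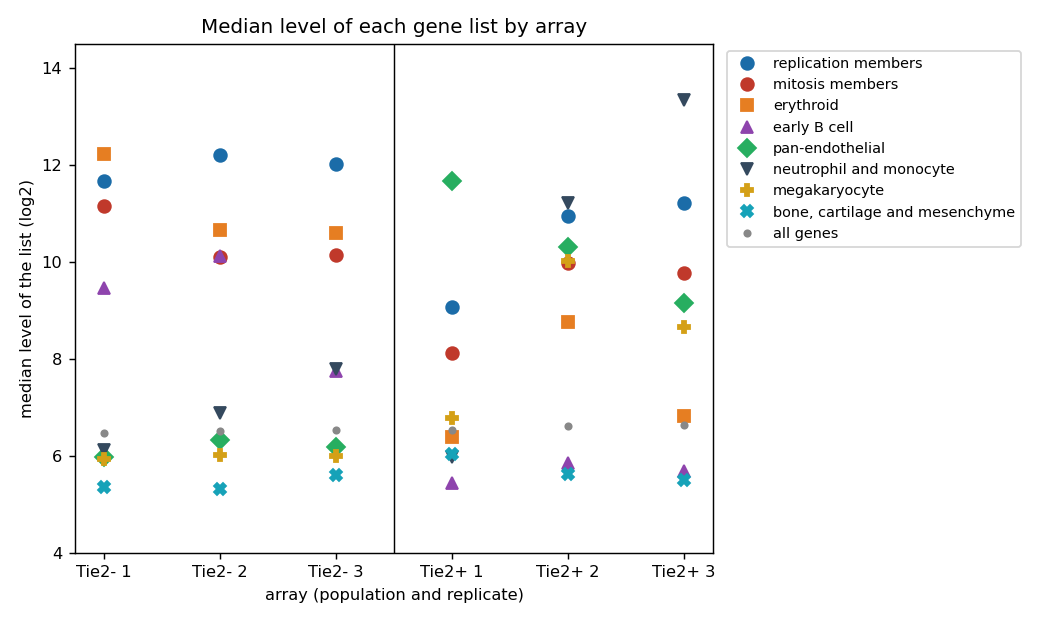
Median log2 level of each gene list on each array. The replication and mitosis lists are lowest on Tie2-positive replicate 1 (9.08 and 8.13), where the pan-endothelial list is highest (11.68) and the neutrophil and erythroid lists are at 5.98 and 6.40.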

How the data were processed

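The deposited table gives 1 log2 value per probe set and array (45101 probe sets, 6 arrays). The log2 scale was inferred from their span, 2.56 to 14.78. The authors' summarisation and normalization are not given in the sources used here. Gene names came from the platform annotation: 34945 probe sets name 1 gene, 932 several and 9160 are unnamed here, beside 64 array controls. The values were quantile normalized, because the arrays' 75th percentiles differed by up to 0.27, and each gene took its probe set with the highest mean. The populations were compared with limma 3.58.1 in R 4.3.3 (lmFit, eBayes with a mean trend, two-sided, Benjamini-Hochberg over 18193 genes, threshold 0.05), on all 6 arrays without covariates. Arrays have no read depth. The procedure was tested on simulated data with independent noise and the same spread in both populations. Of planted changes, 25.6% were recovered at 1 log2 unit and 72.8% at 2, and 4.44% of calls were false. The unequal spread of the members between the populations was not simulated. No pair of arrays held identical values.

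The members, the other lists and the alternatives (17 in all) were chosen with earlier results of these data known. Fully described, in each role group, are the genes with the largest and the smallest difference and every gene that passed; Mcm6, Cdt1, Rrm1, Ccnb2 and Nusap1 were added after their values were seen. From other lists, up to 3 called genes were named, or the 2 with the highest mean. The megakaryocyte markers named beside Vwf and Pf4 fall outside this rule.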

Additional observations from a re-analysis of the deposited data

How the results depend on the processing

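Each of the 44 members kept a negative difference in each of the 17 alternatives in which it had a value, and no median reversed. The median differences moved by less than a set limit except with Tie2-positive replicates 2 and 3 left out (-2.64 for replication and -2.55 for mitosis genes). The limit was the SD of the list's array medians, pooled over the populations (0.845 for replication and 0.829 for mitosis genes). It includes the distance of Tie2-positive replicate 1 from replicates 2 and 3, and so wide a limit cannot show that the medians were stable. Leaving out 1 array moved the median differences between -1.73 and -0.81 for replication and between -1.55 and -0.52 for mitosis genes. The counts of calls moved much more. Over all genes limma called 1345, but 0 with the replicate block (smallest adjusted p 0.0521; 5080 genes at an unadjusted p under 0.05), 4639 with array weights, 3637 with Tie2-positive replicates 2 and 3 left out, and 0 to 2148 with 1 array left out. Replication genes called numbered 1, but 0 with the replicate block, 2 with weakly expressed genes left out (fewer genes tested), 10 with array weights, 20 with Tie2-positive replicates 2 and 3 left out, and 0 to 12 with 1 array left out. Mitosis genes called numbered 0, but 2 with array weights, 21 with those replicates left out, and 0 to 3 with 1 array left out. Why the counts moved was not tested. The replicate numbers were not taken to pair the samples in the main fit. Deviations of same-numbered arrays correlated by 0.14, 0.0050 and 0.19, and those of differently numbered arrays by -0.16 to 0.055. These values do not settle whether same-numbered samples belong together. Aurkb had no value once x_at and s_at probe sets were dropped, nor Tyms once weakly expressed genes were. With 3 arrays per population, an exact permutation test could not go below p = 0.1, and the deposited values carry no detection calls, so the signal over background is unknown.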
